A study of Rattus norvegicus with 6 samples.

Results

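The NF-kappaB transcription factor subunits, the IkappaB-type protein Bcl3 and inhibitors of the pathway were followed as 10 genes: Nfkb1, Nfkb2, Rela, Relb, Bcl3, Nfkbia, Nfkbib, Nfkbiz, Tnfaip3 and Birc3. They were chosen by name, as every probe set whose array annotation gives only that gene, which left 13 of 31042 probe sets. Bcl3 had 3 of these, Nfkbiz had 2, and the other 8 genes had 1 each. Rat pituitaries kept in organ culture were measured on 1 array each, 3 as controls and 3 exposed to 10 nM of the gonadotropin-releasing hormone of the hypothalamus, GnRH. The comparison asked which transcripts were higher or lower in the GnRH-treated cultures. The sources used here do not give strain, sex, age or treatment time. No label ties the samples to separate animals or cultures. The p-values thus rest on a spread that may be technical, apart from the split of the controls by sex-linked transcripts given below. In such bulk samples, fewer cells of a type and less RNA per cell cannot be told apart.

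NF-kappaB is a family of dimeric transcription factors that wait in the cytoplasm, bound to IkappaB inhibitors, until kinases downstream of cytokine and Toll-like receptors mark the inhibitor for destruction. The freed dimers then bind kappaB sites in DNA, many of them in genes of inflammation and cell survival. Several members are themselves known NF-kappaB targets, including Nfkbia and Tnfaip3, whose products close a negative feedback loop. In the pituitary, NF-kappaB is mainly known from the response to inflammatory signals, while GnRH acts on gonadotropes, the cells that make LH and FSH.

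The arrays held the hormone transcripts of the pituitary. Growth hormone (Gh1) had log2 intensities of 14.09 to 14.25 and prolactin (Prl) 13.83 to 14.21. Gnrhr, the GnRH receptor, had 7.78 to 8.16 in controls and 8.78 to 9.45 with GnRH. Cga, the common hormone alpha subunit, had 12.84 to 13.27. Pomc, the corticotropin precursor, varied from 6.09 in GnRH 3 to 8.47 in control 1, its low end near the median brightness of all probe sets (6.04). There were no detection calls, so no transcript could be called absent. Control 3 stood apart from the other controls. Xist, the RNA of the inactive X chromosome, was low in controls 1 and 2, at 3.91 and 3.66 (log2) on 1 of its probe sets, but reached 9.77 in control 3 and 9.16 to 9.73 with GnRH. The Y-linked gene Eif2s3y ran the other way, with 6.48 and 6.56, then 2.76, and 2.06 to 2.42. Both transcripts divide controls 1 and 2 from the other 4 arrays, as male tissue would differ from female tissue. Sex is thus partly confounded with GnRH, and wholly so without control 3. The members' differences were therefore also taken without control 3 and against control 3 alone.

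The promoters of 4 members are shown, chosen after the values were seen. Bcl3 and Nfkb2 had GnRH arrays above all controls on at least 1 probe set, and Nfkbia and Tnfaip3 were highest in control 3. Nfkbib, with no kappaB match, and Birc3, absent from the promoter table, were also highest in control 3 but are not shown. Each window shown runs from 250 bases before to 50 bases after the start site, from RefSeq on GRCr8, 5′ to 3′ on the gene's own strand. The annotated genes Nfkb2, Nfkbia and Tnfaip3 begin upstream of the start site used, so other start sites may exist. Capitals mark matches to the kappaB consensus, searched on both strands. The Bcl3 window is chr1:88613506-88613805 (minus strand) and the Nfkb2 window is chr1:255108124-255108423 (plus strand). The Nfkbia window is chr6:78597023-78597322 (minus strand) and the Tnfaip3 window is chr1:15543930-15544229 (minus strand).
Bcl3: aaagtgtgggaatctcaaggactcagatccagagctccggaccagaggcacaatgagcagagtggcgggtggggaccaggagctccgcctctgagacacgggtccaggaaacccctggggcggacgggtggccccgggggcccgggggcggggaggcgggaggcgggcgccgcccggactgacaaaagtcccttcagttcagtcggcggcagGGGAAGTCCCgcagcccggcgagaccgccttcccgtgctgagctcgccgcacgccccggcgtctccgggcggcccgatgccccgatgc
Nfkb2: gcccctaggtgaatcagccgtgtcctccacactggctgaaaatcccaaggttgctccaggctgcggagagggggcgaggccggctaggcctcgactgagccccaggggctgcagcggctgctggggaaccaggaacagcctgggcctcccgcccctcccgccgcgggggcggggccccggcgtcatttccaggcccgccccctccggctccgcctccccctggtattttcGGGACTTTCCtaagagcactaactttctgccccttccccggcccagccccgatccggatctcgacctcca
Nfkbia: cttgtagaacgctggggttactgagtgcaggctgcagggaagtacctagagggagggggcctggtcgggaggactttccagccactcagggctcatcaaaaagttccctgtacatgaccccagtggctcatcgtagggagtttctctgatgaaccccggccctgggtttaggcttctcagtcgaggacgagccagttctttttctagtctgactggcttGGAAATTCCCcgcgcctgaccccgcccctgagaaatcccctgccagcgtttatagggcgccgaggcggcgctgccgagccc
Tnfaip3: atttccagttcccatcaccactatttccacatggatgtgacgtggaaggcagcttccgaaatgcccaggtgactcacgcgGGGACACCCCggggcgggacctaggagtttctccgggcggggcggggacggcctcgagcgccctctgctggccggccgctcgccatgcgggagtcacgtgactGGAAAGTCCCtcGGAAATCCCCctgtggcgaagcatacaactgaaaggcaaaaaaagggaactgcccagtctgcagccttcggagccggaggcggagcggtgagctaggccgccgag

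Bcl3 held 1 match, GGGAAGTCCC, which begins 38 bases before the start site. Nfkb2 held GGGACTTTCC, beginning 20 bases before it, and Nfkbia held GGAAATTCCC, beginning 31 bases before it. Tnfaip3 held 3 matches, GGGACACCCC, GGAAAGTCCC and GGAAATCCCC, beginning 170, 67 and 55 bases before the start. Of the 8 members in the promoter table, 6 held a match; the others with a match were Nfkb1 and Nfkbiz, and Rela and Nfkbib held none in this window. Across the table, 4.18% of 33469 promoters of the same length held a match. These are matches of letters and show no binding.

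Bcl3 rose on 1 of its 3 probe sets. Bcl3 is a nuclear protein of the IkappaB family that joins dimers of the NF-kappaB subunits p50 or p52 on DNA and can switch them to activation. On probe set 1398482_at its log2 intensity was 5.48, 5.41 and 5.46 in controls 1 to 3 and 6.33, 6.27 and 6.31 with GnRH. All 3 GnRH arrays lay far above all controls, and the spread within each group was small, with SDs of 0.033 and 0.026 (n = 3 each). The log2 difference was 0.85 ± 0.08 (SE), or 1.81-fold with a 95% interval of 1.59 to 2.05 (limma, Benjamini-Hochberg adjusted p = 0.00586). Its p-value was the third smallest, rank 3 of 31042.

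The rise on this probe set was of similar size whichever controls were used. The log2 difference was 0.86 without control 3 (limma adjusted p = 0.000543) and 0.84 against control 3 alone, the control whose Xist level was that of the GnRH arrays. It passed the threshold in all 6 fits that left out 1 array, with log2 differences from 0.83 to 0.87. This probe set was dim, below the median brightness of all probe sets, and was the 1 member removed by a filter at that level.

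The other Bcl3 probe sets did not pass the test. On 1385627_at the log2 intensity was 7.96, 7.73 and 7.61 in controls and 8.01, 7.97 and 7.96 with GnRH. The GnRH arrays lay close together and control 1 was level with the lowest of them. The log2 difference was 0.21 ± 0.10 (SE; 95% interval -0.015 to 0.44, limma adjusted p = 0.439). On 1380414_at the values were 6.07, 6.19 and 5.94 against 6.33, 6.34 and 6.14, so that GnRH 3 fell below control 2. The log2 difference there was 0.20 ± 0.10 (SE; 95% interval -0.018 to 0.42, limma adjusted p = 0.446). Without control 3 these differences were 0.13 on 1385627_at and 0.14 on 1380414_at, and against control 3 alone 0.37 and 0.33.

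**Figure D1:**
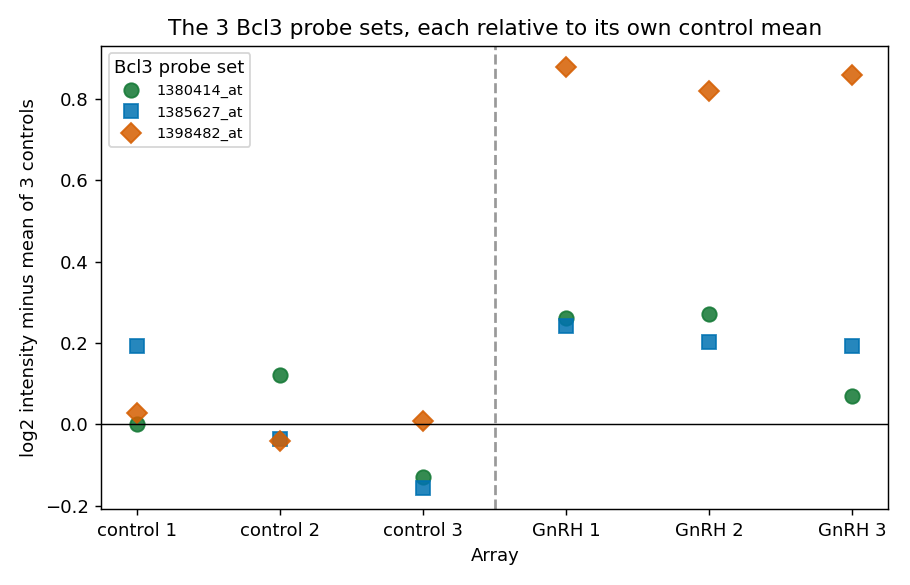
Log2 intensity of the 3 Bcl3 probe sets in each of the 6 arrays, minus that probe set's mean over the 3 controls; each point is 1 array and the dashed line parts controls from GnRH arrays. Probe set 1398482_at sits apart in the GnRH arrays, with a mean difference of 0.85, against 0.20 and 0.21 for the others.

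The estimated size of the difference thus varied among the probe sets. Probe set 1398482_at, set against each of the others here, was picked for its smallest p-value among the 3. Within each array, the log2 value of 1398482_at minus that of 1385627_at was -2.49, -2.32 and -2.15 in controls and -1.68, -1.70 and -1.65 with GnRH. The groups did not overlap, and the effect on 1398482_at was larger by 0.64 on the log2 scale (SD within groups 0.12). Against 1380414_at it was larger by 0.65 (SD 0.13), again without overlap. The effects on the 2 weaker probe sets differed by -0.010 (SD 0.14). An exact 2-sided permutation test over the arrays gave p = 0.1, 0.1 and 0.9, or 0.15, 0.15 and 0.9 adjusted over the 3 pairs, where 0.1 is the smallest p that 3 against 3 allows. With the mean of all 3 probe sets as the value of the gene, Bcl3 differed by 0.42 and missed the threshold (limma adjusted p = 0.0583). The sources used here do not give which stretch of the Bcl3 transcript each probe set reads.

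Across the 13 probe sets, this was the 1 call: 1 rose and 12 did not pass, by limma with Benjamini-Hochberg adjustment over all probe sets. The background was 0.464% of all probe sets called, with 0.422% called higher and 0.0419% lower. At an unadjusted p under 0.05, 2 members were higher and 1 was lower, where 12.3% of all probe sets passed in either direction. The groups did not overlap in 2 of 13 members, the Bcl3 probe set and Nfkb2, both higher. Of all probe sets, 16.7% were without overlap in either direction, 7.06% with GnRH higher and 9.62% with GnRH lower. The median log2 difference of the members was 0.03, beside -0.02 over all probe sets. The count without overlap in either direction was thus near the background.

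**Figure D2:**
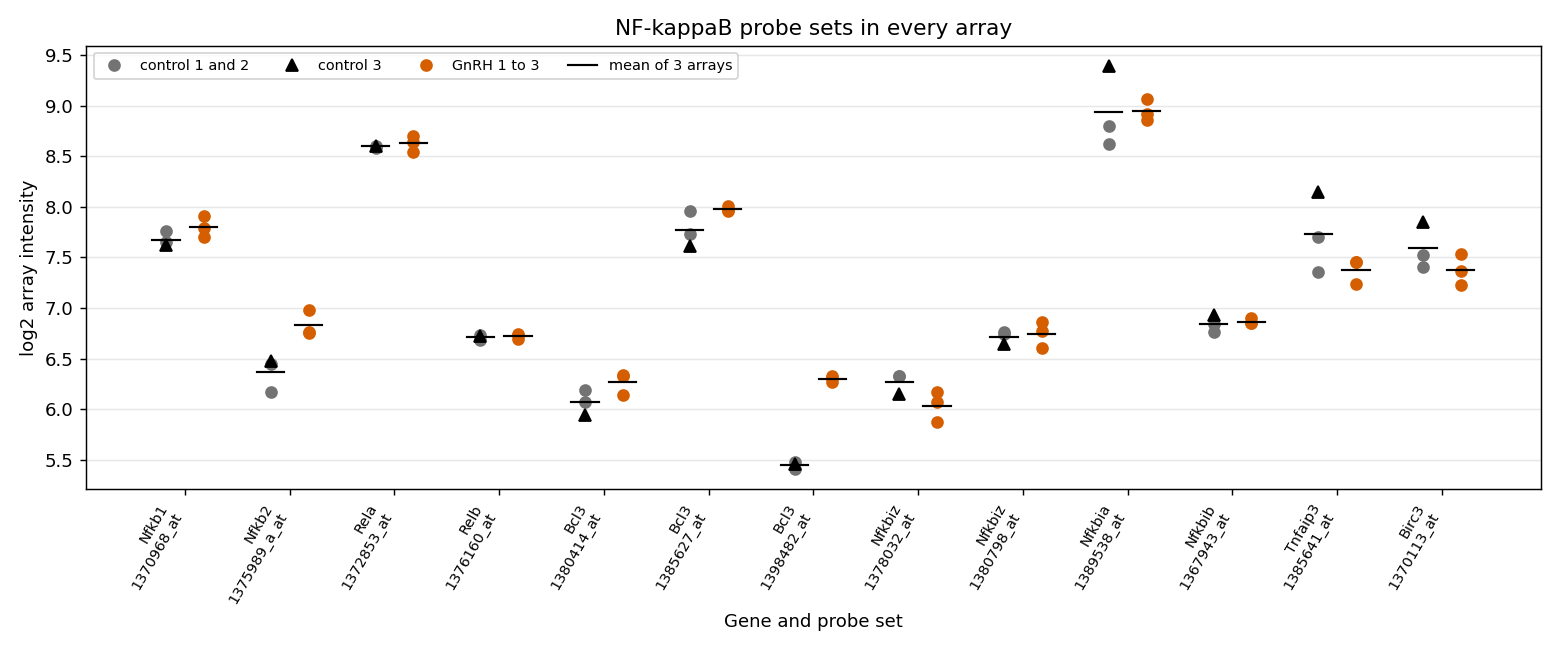
Log2 array intensity of the 13 probe sets, with controls 1 and 2 as grey circles, control 3 as black triangles, GnRH arrays as orange circles and means of 3 arrays as bars. Bcl3 1398482_at and Nfkb2 are the probe sets whose groups do not overlap, and control 3 is the highest array for Nfkbia, Tnfaip3, Birc3 and Nfkbib. Heights of different probe sets are not comparable.

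Among the DNA-binding subunits, Nfkb2 had the largest difference and missed the threshold. Nfkb2 encodes p100, which is cut to p52 in the non-canonical branch of the pathway. Its log2 intensity was 6.45, 6.17 and 6.48 in controls and 6.98, 6.76 and 6.75 with GnRH. Every GnRH array lay above every control, with control 2 lower than the others. The log2 difference was 0.47 ± 0.11 (SE; 95% interval 0.22 to 0.71), or 1.38-fold (limma adjusted p = 0.121).

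Without control 3, Nfkb2 passed, at 0.53 or 1.44-fold (limma adjusted p = 0.0204, with a range of 0.00487 to 0.385 across the alternatives). In that fit 7.44% of all probe sets passed, 4.95% higher and 2.49% lower, and the members past it were Nfkb2 and Bcl3 1398482_at, 2 of 13. That fit sets controls with low Xist against GnRH arrays with high Xist, so sex and GnRH cannot be told apart in it. Weighting the arrays by their fit, with control 3 weighted least (0.298), also took Nfkb2 past the threshold, at 0.61 (limma adjusted p = 0.00487), in a fit that called 9.73% of all probe sets. Against control 3 alone the Nfkb2 difference was 0.35, with no test.

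The remaining subunits showed small differences. Rela, the p65 subunit that carries the main activation domain, had 8.60, 8.58 and 8.60 in controls and 8.70, 8.54 and 8.64 with GnRH. Its log2 difference was 0.03, with a 95% interval of -0.16 to 0.22. Relb, the partner of p52, had 6.73, 6.68 and 6.72 against 6.74, 6.69 and 6.73, a difference of 0.01 (95% interval -0.17 to 0.19). In Relb the 6 arrays spanned almost the same narrow range in both groups. Nfkb1, which encodes p105 and its product p50, had 7.65, 7.76 and 7.62 against 7.91, 7.70 and 7.79. GnRH 2 lay below control 2, and the difference was 0.12 (95% interval -0.08 to 0.33, limma adjusted p = 0.616).

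Nfkbiz, which encodes the inducible nuclear IkappaB-zeta, gave different values on its 2 probe sets. On 1378032_at the log2 intensity was 6.33, 6.33 and 6.15 in controls and 6.17, 5.87 and 6.07 with GnRH. Control 3 lay among the GnRH arrays, and the log2 difference was -0.24 ± 0.10 (SE; limma adjusted p = 0.399), with -0.30 without control 3 and -0.12 against it alone. On 1380798_at the values were 6.76, 6.74 and 6.64 against 6.86, 6.77 and 6.61, a difference of 0.03 with a 95% interval of -0.18 to 0.24. The GnRH arrays on this probe set held both the highest and the lowest value.

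The cytoplasmic inhibitors did not pass the test. Nfkbia encodes IkappaB-alpha, an inhibitor whose own gene NF-kappaB induces. Its log2 intensity was 8.62, 8.80 and 9.39 in controls and 9.06, 8.86 and 8.92 with GnRH. The GnRH arrays all lay between controls 1 and 2 on the low side and control 3 on the high side, and the SD was 0.40 among controls against 0.10 with GnRH. The log2 difference was 0.01 ± 0.17 (SE; 95% interval -0.36 to 0.39, limma adjusted p = 0.984).

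The sign for Nfkbia depended on control 3. It was 0.24 without that array (95% interval 0.02 to 0.46, limma adjusted p = 0.162) and -0.44 against it alone. Nfkbib, which encodes the related inhibitor IkappaB-beta, had 6.76, 6.84 and 6.93 in controls and 6.85, 6.85 and 6.90 with GnRH. The GnRH arrays lay within the range of the controls, and the log2 difference was 0.02 (95% interval -0.17 to 0.21).

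Tnfaip3 and Birc3 also had their highest value in control 3. Tnfaip3 encodes A20, the ubiquitin-editing enzyme that shuts off signalling upstream of the IkappaB kinase. Its log2 intensity was 7.36, 7.70 and 8.15 in controls and 7.45, 7.24 and 7.45 with GnRH. GnRH 1 and 3 lay just above control 1, so the groups overlapped. The log2 difference was -0.36 ± 0.17 (SE; 95% interval -0.73 to 0.02, limma adjusted p = 0.429).

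Without control 3 the Tnfaip3 difference was -0.15 (limma adjusted p = 0.444), while against control 3 alone it was -0.77. When each array's mean log2 Xist value was a covariate, a fit that draws 94.2% of its control weight from control 3, Tnfaip3 passed at -0.73 (limma adjusted p = 0.0413, with a range of 0.0413 to 0.764 across the alternatives), and 1.22% of all probe sets were called. Birc3 encodes the ubiquitin ligase cIAP2, which acts at TNF receptors. It had 7.41, 7.52 and 7.85 in controls and 7.53, 7.23 and 7.37 with GnRH. GnRH 1 lay within the control range and the other GnRH arrays below it, with a log2 difference of -0.22 ± 0.13 (SE; 95% interval -0.50 to 0.07, limma adjusted p = 0.523). It was -0.09 without control 3 and -0.47 against it alone.

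**Figure D3:**
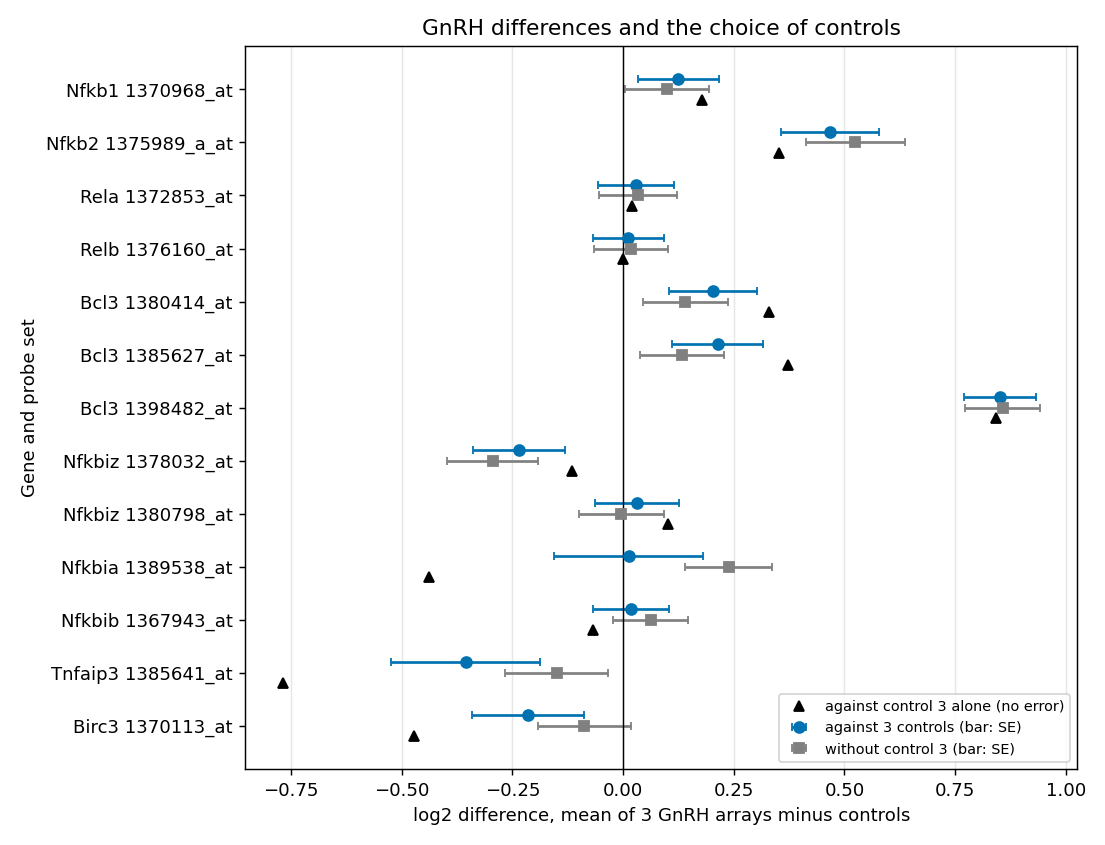
Log2 difference of the mean of the GnRH arrays from controls, by probe set: circles against all 3 controls and squares without control 3, with SE bars, and triangles against control 3 alone. The 3 estimates nearly coincide for Bcl3 1398482_at (0.85, 0.86 and 0.84) and spread widely for Nfkbia (0.01, 0.24 and -0.44) and Tnfaip3 (-0.36, -0.15 and -0.77).

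Control 3 exceeded the mean of controls 1 and 2 by 0.68 for Nfkbia, 0.62 for Tnfaip3 and 0.38 for Birc3 on the log2 scale, beside a median of -0.05 over all probe sets. It was the highest of the 6 arrays for 4 of 13 members, against 18.1% of all probe sets, and the lowest for 3, against 21.0%. For the 3 Bcl3 probe sets the same contrast was 0.02 (1398482_at), -0.19 (1380414_at) and -0.24 (1385627_at). The contrast was 0.17 for Nfkb2, 0.13 for Nfkbib, 0.02 for Relb, 0.01 for Rela and -0.08 for Nfkb1. For Nfkbiz it was -0.18 (1378032_at) and -0.10 (1380798_at). Nfkbib was highest in control 3 by a small margin, 6.93 against 6.90 in GnRH 3.

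Markers of other cells were read beside these values, with 1 probe set a gene. Of the markers of folliculostellate and stem-like cells, the supporting cells of the gland, 10 of 12 were measured. Their summed linear intensity was 2866 to 3624 in controls, highest in control 3, and 2329 to 2759 with GnRH, without overlap. The sum weighs bright markers most. S100b had a higher mean with GnRH (log2 difference 0.15), as did Slc1a3 (0.20), Aldh1a2 (0.07) and Sox2 (0.02), named after their values were seen. The other measured markers of the list had lower means. No marker of that list passed the test, with 3 at an unadjusted p under 0.05 (limma; background 12.3%), and the list median was -0.09. S100b had 7.66 to 7.94 in controls and 7.86 to 8.03 with GnRH. Gfap, a glial filament gene named after its values were seen, had 7.92, 8.97 and 8.94 in controls and 7.69, 6.47 and 5.76 with GnRH, with no overlap. Its log2 difference was -1.97 (limma adjusted p = 0.0835), and without control 3 it passed at -1.80 (limma adjusted p = 0.0367). The list of macrophages and leukocytes, with 19 of 20 measured, summed to 2051 to 2357 in controls and 2042 to 2364 with GnRH. Its Ptprc, the pan-leukocyte marker, was at 3.78 to 4.46 and Cd68, of macrophages, at 6.35 to 6.65. The endothelial list, with 11 of 12 measured, summed to 1515 to 1656 against 1651 to 1801, and its Pecam1 was at 5.90 to 6.47. The fibroblast and pericyte list, with 10 of 10 measured, summed to 1699 to 1796 against 1596 to 1709. None of it passed the test, and 5 had an unadjusted p under 0.05 (limma, background 12.3%). Of these, Col1a2 (log2 difference 0.61) and Col3a1 (0.39) were higher with GnRH. Dcn (-0.63), Lum (-0.54) and Pdgfra (-0.51) were lower, all named after their values were seen. The endocrine list, with 10 of 10 measured, summed to 51654 to 55386 against 54094 to 57241. At an unadjusted p under 0.05 (limma, background 12.3%) there were 2 macrophage and leukocyte, 1 endothelial and 3 endocrine markers. The endocrine marker Gnrhr passed the test, with a log2 difference of 1.12 (limma adjusted p = 0.0215), where 0.464% of all probe sets were called. Without control 3 it passed at 1.24 (limma adjusted p = 0.00213), in a fit that called 7.44%. With all 6 arrays, no macrophage and leukocyte or endothelial marker passed. The part of these cell types in the Bcl3, Nfkbia and Tnfaip3 values was not tested.

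The rest of the pathway was read from 6 lists with 96 of 114 genes measured. Of these, 0 rose, 1 fell and 95 did not pass the test (limma; 19 at an unadjusted p under 0.05, where the background was 12.3%), which is 1.04% called beside the background of 0.464%. The median log2 difference was -0.0042, beside -0.02 over all probe sets. The groups did not overlap in 21 genes, or 21.9%, beside 16.7% of all probe sets. A list gene stands for its brightest probe set, while the background holds all probe sets, with dim and unnamed ones. The shares are thus not of like sets.

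The ligands were 9 measured of 11, with 0 called and 3 at an unadjusted p under 0.05 (limma; background 12.3%). Il33, an alarmin of the interleukin-1 family, had a log2 difference of -0.32 (limma adjusted p = 0.194). Il1b, interleukin-1 beta, had 7.21, 7.33 and 7.58 in controls and 7.09, 7.09 and 7.04 with GnRH, a difference of -0.30 (limma adjusted p = 0.291). Both lay lower in every GnRH array than in any control. The list median was -0.16.

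The receptors were 9 measured of 14, also with 0 called and 3 at an unadjusted p under 0.05 (limma; background 12.3%). Ltbr, the lymphotoxin beta receptor that feeds the non-canonical branch, had 7.49, 7.77 and 7.37 in controls and 8.12, 7.86 and 7.98 with GnRH. Its log2 difference was 0.44 (limma adjusted p = 0.162), with no overlap. Il1r1, the interleukin-1 receptor, had a difference of -0.24 (limma adjusted p = 0.315), and the list median was -0.05.

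Of the kinases and adaptors, 26 of 30 were measured, 0 were called and 2 had an unadjusted p under 0.05 (limma), beside the background of 12.3%. These were Irak1, a kinase of the interleukin-1 and Toll-like receptors (log2 difference 0.35, limma adjusted p = 0.143), and Traf3, an adaptor that restrains the non-canonical branch (0.27, limma adjusted p = 0.266). Traf3 and Irak1 were higher in each GnRH array than in any control. The list median was 0.06. The other negative regulators had 19 of 23 measured, with 0 called and 0 at an unadjusted p under 0.05 (limma). Their smallest p-values belonged to Commd1 (0.22, limma adjusted p = 0.473), which promotes turnover of RelA, and Pdlim2 (-0.16, limma adjusted p = 0.514). The 2 other subunit and IkappaB genes measured of 4 were Nfkbil1 (0.29, limma adjusted p = 0.233) and Nfkbid (-0.07, limma adjusted p = 0.770).

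The target genes held the 1 call, with 31 of 32 measured and 30 that did not pass. At an unadjusted p under 0.05 there were 10, beside the background of 12.3%. Lcn2, the iron-siderophore carrier lipocalin 2, had 9.40, 9.67 and 9.54 in controls and 9.0, 8.63 and 8.63 with GnRH, and fell by 0.78 on the log2 scale (limma adjusted p = 0.0266). Of the 31 targets, 7 lay lower in all GnRH arrays than in any control, beside 9.62% of all probe sets, and 1 lay higher, beside 7.06%. The list median was -0.14.

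**Figure D4:**
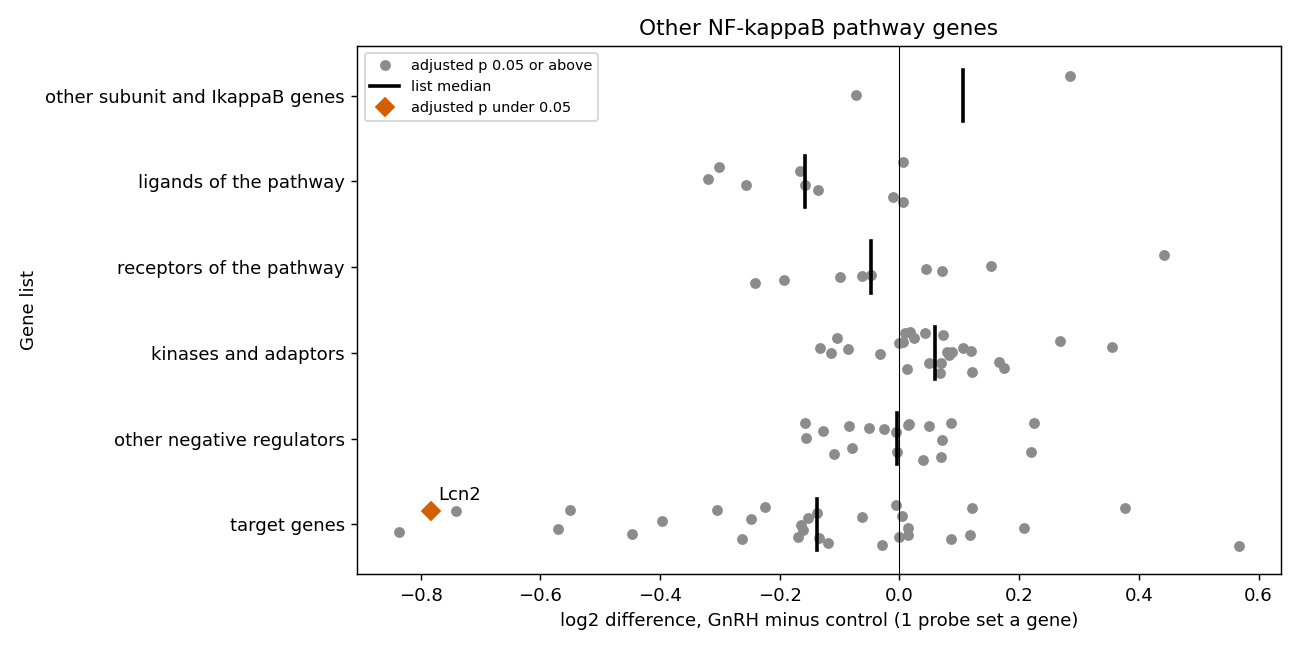
Log2 difference, GnRH minus control, of 96 measured genes in 6 pathway lists, with 1 probe set a gene; points are genes, scattered vertically for visibility, and black bars are list medians. Lcn2, the sole gene past the threshold, lies at -0.78, and the list medians run from -0.16 for ligands to 0.11 for the other subunit and IkappaB genes.

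Without control 3, 4 of the 96 rose and 3 fell, or 7.29%, beside a background of 7.44% in that fit. Those higher were Irak1, Ikbkb, Commd1 and Vcam1, and those lower were Lcn2, Ccl2 and Ptgs2, all but Lcn2 named here after their values were seen. Vcam1, an adhesion molecule, had a log2 difference of 0.80 in that fit (limma adjusted p = 0.0018) against 0.38 with all 6 arrays. Ccl2, a monocyte chemokine, had -0.54 without control 3 and -0.74 with it.

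Genes of most similar pattern over the 6 arrays were sought for Bcl3 1398482_at, Bcl3 1385627_at and Nfkbia. They were found as the smallest mean absolute difference of log2 values, each centred on its own mean. For Bcl3 1398482_at, chosen after its values were seen, they were Loxl1 (0.052), an enzyme of elastic fibres, Cxxc5 (0.059), Fam43a (0.059) and Mgat4b (0.075), a glycosyltransferase. For Bcl3 1385627_at they were Rara (0.027), a retinoic acid receptor, Slc25a1 (0.028), Spen (0.028) and Mtss2 (0.029). The measure includes the size of the GnRH difference, so these Bcl3 probe sets were bound to have different nearest genes. For Nfkbia they were Elk3 (0.039), Ifnar1 (0.043), an interferon receptor chain, Tmcc3 (0.044) and Tnfrsf9 (0.048), a receptor of the TNF family.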

How the data were processed

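Each of 6 samples, 3 controls and 3 given GnRH as their titles say, was read on 1 array. The values deposited are linear-scale intensities; the submitters' processing notes name RMA (robust multi-array average). The sources used here give no software version or filter. Their log2 was taken here, without a pseudocount or a filter. Probe sets were named from the array annotation (20826 with 1 gene symbol, 436 with several, 9780 unlisted), updated by gene identifier to GRCr8 symbols. The test was limma's (version 3.58.1, R 4.3.3; lmFit and eBayes, 2-sided, no covariate), with Benjamini-Hochberg adjustment over 31042 probe sets and a threshold of 0.05. The fit was also run on simulated arrays of equal quality, without the split among the controls. That run does not bear on calls that move with control 3. Genes of the pathway and marker lists are represented by their brightest probe set. Every member probe set is named; of each pathway list, genes past the threshold, or else the 2 with the smallest p-values; of the marker lists, Gh1, Prl, Pomc, Cga, Gnrhr, Ptprc, Cd68, Pecam1 and S100b. Members and lists were chosen with earlier results of these data known. The number of arrays limits the precision. Alternatives were other scaling, variance models, array weights, a filter on dim probe sets, gene means, the replicate number as a block, an Xist covariate and leaving out each array.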

Additional observations from a re-analysis of the deposited data

How the results depend on the processing

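With 3 arrays a group and no detection calls, differences well under the intervals given could not be resolved, and the 13 probe sets of 10 genes share their arrays. Bcl3 1398482_at kept its direction and its call in all 13 tested alternatives that included it, with log2 differences from 0.83 to 0.88. The filter on dim probe sets removed it, which left 0 members past the threshold (limma; 2 at an unadjusted p under 0.05), and gene means gave 0 of 10 genes (2 at an unadjusted p under 0.05). The members past the threshold were 2 with array weights (Bcl3 and Nfkb2), 2 with the mean Xist level as a covariate (Bcl3, and Tnfaip3 at -0.73, limma adjusted p = 0.0413), and 1 to 2 when an array was left out, where Nfkb2 was added without control 3.

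Over all probe sets, 144 passed; 90 did with quantile normalization, 3020 with array weights, 378 with the Xist covariate, and 20 to 2309 when an array was left out (2309 without control 3, 69 without control 1, 28 without control 2, and 51, 20 and 65 without GnRH 1, 2 and 3). The cause was not tested. With the replicate number as a block, 215 passed, with 1 member, Bcl3, among them; deviations of same-numbered samples correlated at 0.16, -0.049 and 0.16, so the numbers are not taken to pair the samples, and the block changed no call among the members. Differences near 0 changed sign: Rela (-0.052) and Nfkbia (-0.057) with quantile normalization, and Nfkbia (-0.40), Nfkbib (-0.060) and Relb (-0.00072) with the Xist covariate. When an array was left out, the range was -0.15 to 0.24 for Nfkbia, -0.024 to 0.062 for Nfkbib, -0.0085 to 0.072 for Rela, -0.0053 to 0.027 for Relb and -0.024 to 0.099 for Nfkbiz 1380798_at. The effect on Bcl3 1398482_at exceeded that on 1380414_at by 0.57 to 0.72 and that on 1385627_at by 0.55 to 0.72, while 1380414_at minus 1385627_at ran from -0.11 to 0.069. Median centring, an intensity trend and robust variances changed no direction and no call among the 13 probe sets.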
